A study of Mus musculus with 18 samples.

Results

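Expression of the LIF receptor and of genes that respond to STAT3 was compared among 6 mouse pluripotent cell lines. The 8 genes were Lifr, Il6st, Stat3, Socs3, Pim1, Pim3, Gbx2 and Bcl3, out of 18193 genes with a probe set of a single symbol on the Affymetrix array. They were taken by name, every one was measured, and together they had 21 probe sets, all of which are described. Among the lines, 4 were induced pluripotent (iPS) lines, named IP14D-1, IP14D-101, IP20D-3 and also IP36D-3. The other 2, R1 and ESC2, were embryonic stem (ES) lines, and each line had 3 of the 18 arrays. IP14D-1, IP20D-3, IP36D-3 and ESC2 carried the strain label B6 x D2 F1, IP14D-101 carried B6 x 129S2 F1 and R1 carried 129X1/SvJ x 129S1 F1. Every line was grown with added LIF on feeder fibroblasts stopped with mitomycin C. FBS or Knockout serum replacement was in the medium, with no record per line. The labels also do not say how the iPS lines were reprogrammed. Each line is 1 line, so a difference between lines belongs to that line as cultured and not to its strain or cell type. The series' design text calls the 3 arrays of a line biological replicates without naming separate cultures, and p-values between lines measure only the spread between these arrays.

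LIF is a cytokine that keeps mouse ES cells from differentiating. It binds the LIF receptor (Lifr), which pairs with the shared signalling chain gp130 (Il6st). JAK kinases on the paired receptor then phosphorylate the transcription factor STAT3, which dimerises, enters the nucleus and switches on target genes. Socs3 is a target that feeds back to block the receptor. Pim1 and Pim3 encode kinases, Gbx2 a homeobox transcription factor and Bcl3 a nuclear cofactor of NF-kappaB, and these genes are among the LIF-responsive targets known in mouse ES cells. mRNA levels do not measure phosphorylated STAT3.

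Socs3, Gbx2 and Bcl3 varied most among the target genes on their brightest probe sets, so their promoter windows are shown. Each is the 250 bases before the RefSeq gene start in GRCm38.p6, read 5′ to 3′ on the gene's strand. Capitals mark matches to TTCNNNGAA or TTCNNNNGAA, palindromic STAT-type motifs for which 1 reading covers both strands. Socs3 lies on the minus strand, window chr11:117969367-117969616, with 1 match to TTCNNNGAA that spans 154 to 146 bases before the start. Gbx2 also lies on the minus strand, window chr1:89931177-89931426, with 1 match to TTCNNNNGAA that spans 111 to 102 bases before the start. Bcl3, on the minus strand at chr7:19822756-19823005, had a match to neither.
Socs3: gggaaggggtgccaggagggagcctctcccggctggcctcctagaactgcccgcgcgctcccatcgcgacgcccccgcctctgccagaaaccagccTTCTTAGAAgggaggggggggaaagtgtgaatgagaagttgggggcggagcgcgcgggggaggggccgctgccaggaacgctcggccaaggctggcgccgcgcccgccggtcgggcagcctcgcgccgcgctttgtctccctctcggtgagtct
Gbx2: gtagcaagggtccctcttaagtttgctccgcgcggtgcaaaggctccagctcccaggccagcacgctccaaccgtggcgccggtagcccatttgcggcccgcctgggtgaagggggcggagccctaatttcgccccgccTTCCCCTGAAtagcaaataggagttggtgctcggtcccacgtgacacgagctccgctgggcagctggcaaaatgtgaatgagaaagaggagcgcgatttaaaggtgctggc
Bcl3: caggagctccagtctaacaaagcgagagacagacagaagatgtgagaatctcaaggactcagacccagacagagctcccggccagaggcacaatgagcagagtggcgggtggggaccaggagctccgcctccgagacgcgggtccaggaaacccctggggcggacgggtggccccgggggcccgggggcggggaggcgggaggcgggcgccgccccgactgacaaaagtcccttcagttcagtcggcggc
All 8 genes had a window in the RefSeq table, 10 windows in all because Lifr and Pim1 each had 2, and no other match occurred among them. Over 32851 such windows of all genes, 7.02% held TTCNNNGAA and 5.85% held TTCNNNNGAA. A match is only a description of these letters.

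Values are log2 of the deposited intensities, as mean ± SD over n = 3 arrays of a line, and levels are compared only within a probe set. The median over probe sets lay at 4.92, and probe sets near or under it were not shown to be above background. Where 1 line of a comparison lies there, the difference depends on that background and is no exact ratio. Arrays of a line correlated at 0.990 to 0.998 over probe sets. The pluripotency markers averaged between 11.08 and 11.66 (10 genes) in the 6 lines, and feeder fibroblast markers between 5.20 and 6.66 (19 genes). In these bulk samples fewer cells of a type and less RNA per cell cannot be told apart. The 3′ to 5′ beta-actin ratio was 1.53 ± 0.043 in ESC2, while the 5 other lines averaged 1.13 to 1.28, and it moves with every comparison against ESC2. The 3′ to 5′ Gapdh ratio was not raised in ESC2, at 0.89, against 0.91 to 0.96 in the other lines.

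A probe set was called over the 6 lines at an adjusted p under 0.05 in limma's F test and a range of line means of at least 1 (log2). Counts of genes use 1 probe set per gene, the brightest over the 18 arrays. Of the 8 genes, 5 were called: Lifr, Stat3, Socs3, Gbx2 and Bcl3. Over all 18193 genes, 25.9% were called. The median range of the 8 genes was 1.28, against 0.64 over all genes. Of their 21 probe sets 12 were called, against 24.2% of 45037 probe sets. Without ESC2, whose actin ratio stands apart, 4 genes were called, all but Stat3 of the 5 (20.4% of genes). Without IP14D-101 the same 4 were called (22.6% of genes).

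**Figure D1:**
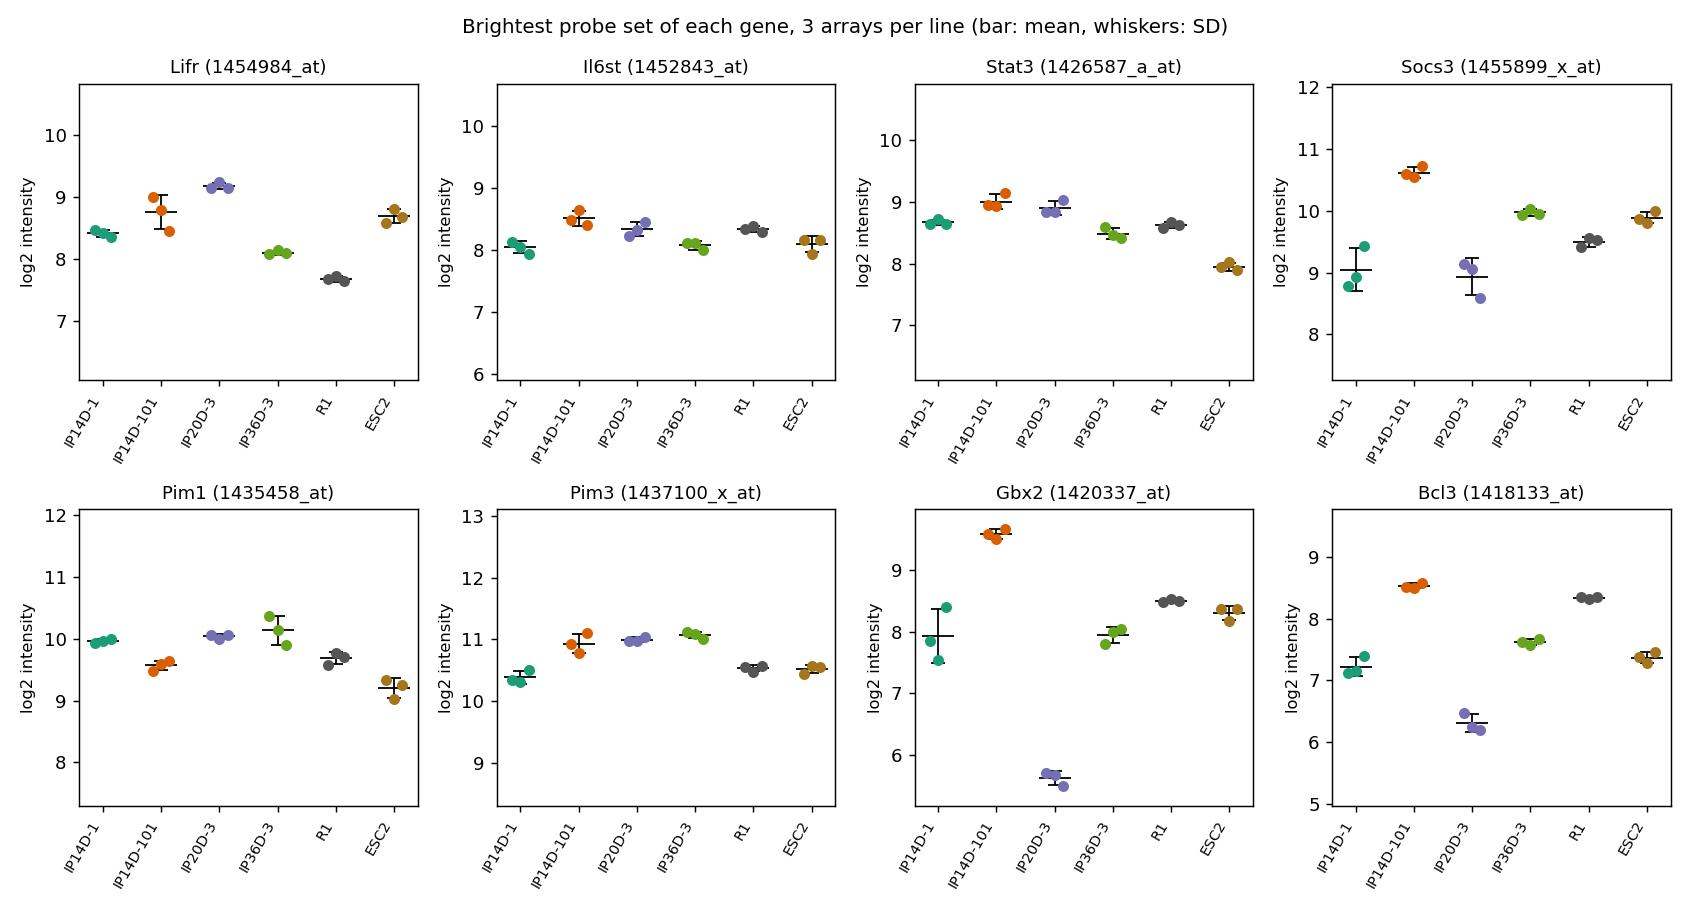
Log2 intensity on each array (points) in the 6 lines for the brightest probe set of each of the 8 genes, with the mean as a bar and the SD over 3 arrays as whiskers. Gbx2 and Bcl3 are highest in IP14D-101 and lowest in IP20D-3, and Il6st and Pim3 stay within 0.47 and 0.68 across the lines.

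Lifr, the ligand-specific receptor subunit, was highest in IP20D-3 and lowest in R1 on the brightest of its probe sets. Its brightest probe set, 1454984_at, read 9.15, 9.24 and 9.15 on the arrays of IP20D-3, 9.01, 8.80 and 8.46 in IP14D-101, 8.46, 8.43 and 8.35 in IP14D-1, and 8.07, 8.14 and 8.09 in IP36D-3. It read 7.67, 7.73 and 7.64 in R1 and 8.58, 8.80 and 8.68 in ESC2. The arrays of IP20D-3 lay above those of every other line and the arrays of R1 below them. The range of line means was 1.503 (F test in limma, adjusted p = 1.38e-08), wider than that of 90.8% of genes. In the order of levels, IP14D-101 and ESC2 differed by 0.06 (adjusted p = 0.651 in limma), and ESC2 and IP14D-1 by 0.28 (adjusted p = 0.0543). The other neighbouring lines differed by 0.31 to 0.43, with adjusted p from 0.0027 to 0.0304 in limma.

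In R1 against ESC2, Lifr was lower by a log2 difference of -1.01 (SE 0.11, adjusted p = 4.31e-07 in limma), just past the threshold of 1. The difference was -0.99 without R1 replicate 3, -0.96 without ESC2 replicate 2 and -0.96 after repeated quantile normalisation, each short of a call. The other 2 Lifr probe sets did not share it. Probe set 1425107_a_at averaged 4.65 in R1 and 4.64 in ESC2, and 1450207_at averaged 5.42 in R1 and 5.08 in ESC2. Both lie close to the median over probe sets. Probe set 1425107_a_at was highest in IP14D-101, at 5.72 ± 0.09, against 4.64 ± 0.20 in ESC2 (log2 difference 1.08, adjusted p = 1.3e-07 in limma), a level in ESC2 not shown to be above background.

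Il6st, the gp130 chain shared by the receptors of the family, varied least. Its brightest probe set, 1452843_at, averaged 8.04 ± 0.10 in IP14D-1, 8.51 ± 0.12 in IP14D-101, 8.34 ± 0.11 in IP20D-3, 8.08 ± 0.07 in IP36D-3, 8.34 ± 0.05 in R1 and 8.09 ± 0.13 in ESC2. Its range of 0.47 was wider than that of 32.5% of genes, and no pair of lines differed by the threshold. IP14D-101, R1 and IP20D-3 formed a higher set, of which the lowest, IP20D-3, lay 0.24 above ESC2 (adjusted p = 0.041 in limma). Of the other Il6st probe sets, 1437303_at was called, with 5.97 ± 0.31 in IP36D-3, against 6.996 ± 0.04 in ESC2 (log2 difference -1.02, adjusted p = 1.18e-05 in limma). Probe sets 1421239_at and 1460295_s_at ranged from 6.30 to 6.93 and from 6.60 to 7.38 between lines and were not called.

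Stat3, the transcription factor activated by the receptor, was lowest in ESC2. Probe set 1426587_a_at read 8.65, 8.71 and 8.64 in IP14D-1, 8.94, 8.93 and 9.14 in IP14D-101, 8.84, 8.83 and 9.03 in IP20D-3, and 8.59, 8.46 and 8.41 in IP36D-3. It read 8.57, 8.67 and 8.62 in R1 and 7.94, 8.02 and 7.89 in ESC2. No array of another line fell to the level of ESC2. The step between the lowest other line, IP36D-3, and ESC2 was 0.54 (adjusted p = 6.75e-05 in limma). IP14D-101 against ESC2 was past the threshold, with a log2 difference of 1.05 (SE 0.08, adjusted p = 1.37e-08 in limma, 2.07-fold), and fell short of it at 0.98 without IP14D-101 replicate 3. The other differences from ESC2 were 0.72 in IP14D-1, 0.95 in IP20D-3, 0.54 in IP36D-3 and 0.67 in R1, all under the threshold.

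The other Stat3 probe sets gave a mixed picture. Probe set 1460700_at followed nearly the same order, with R1 and IP14D-1 exchanged, from 8.83 ± 0.06 in IP14D-101 to 8.16 ± 0.12 in ESC2, and correlated with the first at r = 0.99 over the 6 line means. Probe set 1459961_a_at ran the other way (r = -0.42), with 5.50 ± 0.63 in IP14D-101 and 6.49 ± 0.12 in ESC2. Its arrays in IP14D-101 read 6.01, 5.69 and 4.80, the widest spread of any line for this probe set. Probe set 1424272_at stayed between 4.61 and 5.08, around the median over probe sets. With the median of the 4 probe sets in place of the brightest, Stat3 in IP14D-101 against ESC2 came to -0.04.

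Socs3, the feedback inhibitor of the receptor, was highest in IP14D-101 on all 3 of its probe sets. The brightest, 1455899_x_at, read 8.78, 8.93 and 9.44 in IP14D-1, 10.60, 10.54 and 10.72 in IP14D-101, 9.15, 9.06 and 8.60 in IP20D-3, and 9.94, 10.03 and 9.95 in IP36D-3. It read 9.41, 9.56 and 9.52 in R1 and 9.87, 9.81 and 9.996 in ESC2. The arrays of IP14D-101 lay above all others, and those of IP14D-1 and IP20D-3 overlapped at the low end. The range was 1.69 (F test in limma, adjusted p = 8.87e-08), wider than that of 93.6% of genes. IP14D-101 lay 0.65 above the next line, IP36D-3 (adjusted p = 0.00191 in limma).

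The Socs3 probe sets differed most on ESC2. On 1455899_x_at ESC2 lay in the upper part of the order, at 9.89 ± 0.09, with differences from it of -0.84 in IP14D-1, 0.73 in IP14D-101, -0.96 in IP20D-3, 0.08 in IP36D-3 and -0.40 in R1. None reached the threshold. On 1416576_at ESC2 was the lowest line, at 7.59 ± 0.10, against 9.94 ± 0.12 in IP14D-101, 8.69 ± 0.11 in IP36D-3 and 8.79 ± 0.02 in R1. The 3 differences were 2.35, 1.10 and 1.20 (adjusted p from 8.02e-11 to 1.59e-06 in limma), all called. Probe set 1456212_x_at called IP14D-101 alone against ESC2, by 1.18 (adjusted p = 5.4e-07 in limma), and put IP20D-3 lowest at 7.67 ± 0.28.

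Pim1, a serine/threonine kinase that promotes survival and growth, was lowest in ESC2 on both of its probe sets. Probe set 1435458_at averaged 9.97 ± 0.04 in IP14D-1, 9.57 ± 0.08 in IP14D-101, 10.04 ± 0.04 in IP20D-3, 10.14 ± 0.23 in IP36D-3, 9.69 ± 0.10 in R1 and 9.20 ± 0.16 in ESC2. Its range of 0.94 was under the threshold. Probe set 1423006_at spread over 2.50 (F test in limma, adjusted p = 2.11e-09). It read 9.20, 9.23 and 9.21 in IP14D-1, 8.68, 8.73 and 8.82 in IP14D-101, 7.06, 7.29 and 7.93 in IP20D-3, and 8.20, 8.24 and 7.93 in IP36D-3. It read 8.63, 8.95 and 8.62 in R1 and 6.63, 6.87 and 6.63 in ESC2. The arrays of IP14D-1 lay above all others and those of ESC2 below. Against ESC2 it was called in IP14D-1 (2.50, 5.65-fold), IP14D-101 (2.03), IP36D-3 (1.41) and R1 (2.02), with adjusted p from 6.3e-09 to 2.84e-06 in limma. In IP20D-3 the difference was 0.71. The 2 probe sets correlated at r = 0.40 over the line means, and IP20D-3 ranked near the top on one and next to last on the other.

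Pim3, the related kinase, showed the same split between probe sets. The brightest, 1437100_x_at, averaged 10.39 ± 0.11 in IP14D-1, 10.93 ± 0.16 in IP14D-101, 10.996 ± 0.04 in IP20D-3, 11.07 ± 0.05 in IP36D-3, 10.53 ± 0.05 in R1 and 10.52 ± 0.07 in ESC2. It was not called, with a range of 0.68. Probe set 1451069_at spread over 2.31 (F test in limma, adjusted p = 1.26e-12). It read 9.66, 9.71 and 9.79 in IP14D-1, 10.70, 10.64 and 10.90 in IP14D-101, 8.97, 8.83 and 8.97 in IP20D-3, and 9.14, 9.05 and 9.05 in IP36D-3. It read 10.38, 10.39 and 10.29 in R1 and 8.52, 8.37 and 8.43 in ESC2. IP14D-101, R1 and IP14D-1 stood above the other lines with no overlap. Against ESC2 it was called in IP14D-1 (1.28), IP14D-101 (2.31, 4.95-fold) and R1 (1.91), with adjusted p from 1.64e-12 to 5.55e-09 in limma. The correlation between these probe sets was -0.05 over the 6 line means. The remaining probe set, 1438956_x_at, lay at 4.03 to 4.49, under the median over probe sets, and was not called.

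**Figure D2:**
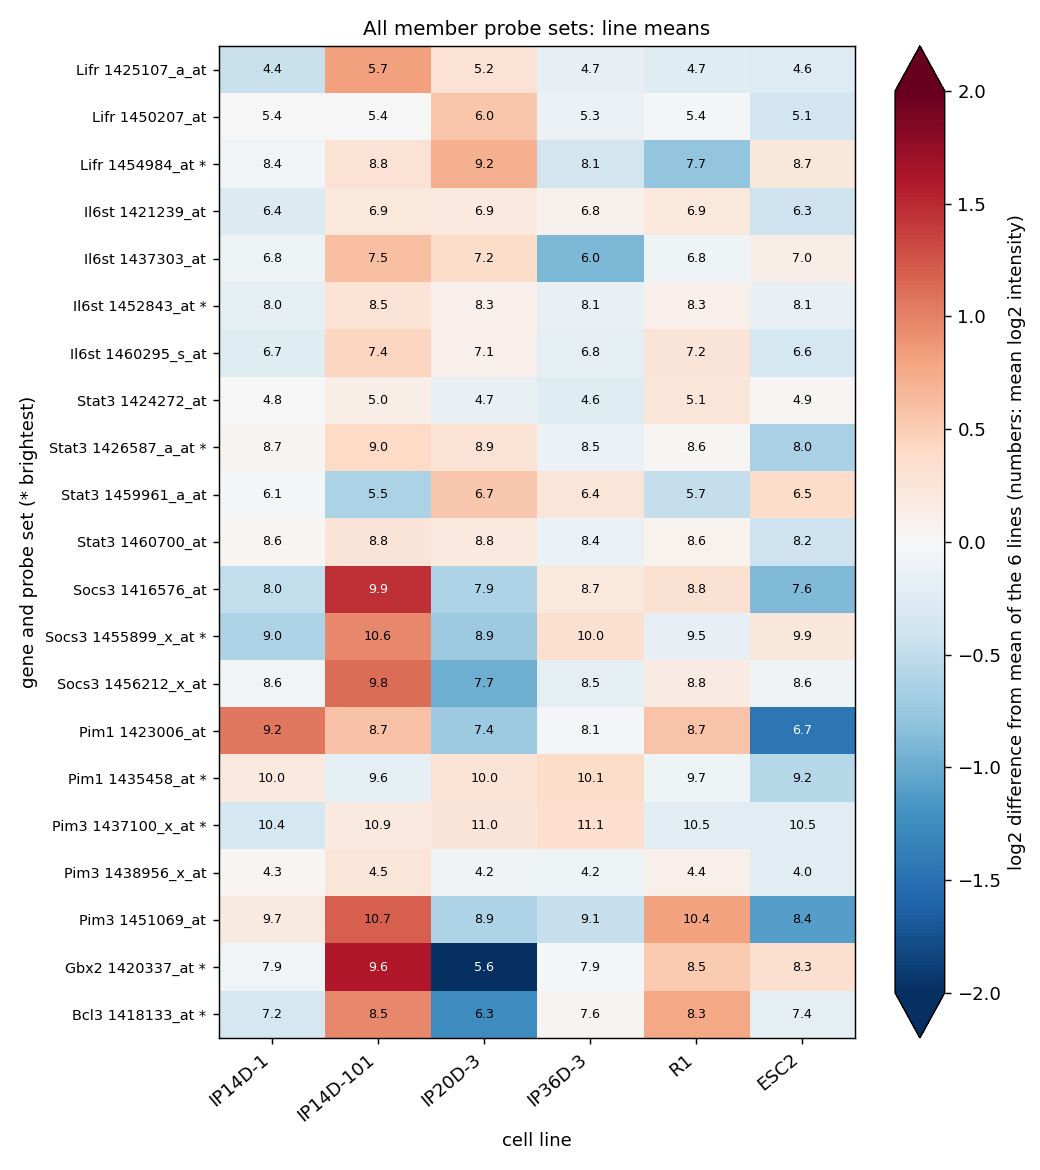
Line means of all 21 probe sets, coloured by their log2 difference from the mean of the 6 lines and printed as mean log2 intensity; an asterisk marks the brightest probe set of a gene. IP14D-101 is highest on the 3 Socs3 probe sets, and the 2 Pim1 and the 2 brighter Pim3 probe sets show different patterns.

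Gbx2, a homeobox factor whose overexpression is known to support self-renewal of mouse ES cells, had the widest range of the 8 genes. Its single probe set, 1420337_at, read 7.84, 7.53 and 8.40 in IP14D-1, 9.57, 9.50 and 9.66 in IP14D-101, 5.72, 5.68 and 5.50 in IP20D-3, and 7.79, 8.002 and 8.04 in IP36D-3. It read 8.48, 8.53 and 8.50 in R1 and 8.37, 8.17 and 8.37 in ESC2. IP20D-3 lay far below every other array and IP14D-101 above. The range of 3.95 corresponded to 15.4-fold in intensity (F test in limma, adjusted p = 1.53e-11) and was wider than that of 99.85% of genes. The level in IP20D-3 was not shown to be above background, so the folds of Gbx2 against that line are those of the intensities and may understate the difference in RNA. Between those extremes, R1, ESC2, IP36D-3 and IP14D-1 differed from their neighbours in the order by 0.02 to 0.36 (adjusted p from 0.0789 to 0.933 in limma). IP14D-101 stood 1.07 above R1 (adjusted p = 4.96e-05) and IP20D-3 2.29 below IP14D-1 (adjusted p = 2.96e-09).

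Bcl3 followed a similar order. Its single probe set, 1418133_at, read 7.12, 7.15 and 7.40 in IP14D-1, 8.52, 8.50 and 8.57 in IP14D-101, 6.47, 6.25 and 6.20 in IP20D-3, and 7.62, 7.58 and 7.66 in IP36D-3. It read 8.34, 8.31 and 8.34 in R1 and 7.38, 7.28 and 7.45 in ESC2. IP14D-101 and R1 formed a high pair 0.20 apart (adjusted p = 0.164 in limma), followed by IP36D-3, 0.71 below R1 (adjusted p = 4.68e-06). IP20D-3 was lowest, 0.92 below IP14D-1 (adjusted p = 2.85e-07 in limma). The range was 2.23, or 4.68-fold (F test in limma, adjusted p = 1e-11), wider than that of 97.5% of genes.

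Markers of other cell states moved with IP14D-101 and IP20D-3. In IP14D-101 against ESC2, 11 of 14 primitive endoderm markers were higher (4.67% of all genes), and their mean log2 level was 7.63 in IP14D-101, against 5.42 to 5.91 in the other lines. Among the defining markers, Gata6 averaged 7.34 in IP14D-101, against 3.68 to 4.85 elsewhere. Over the 5 lines without IP14D-101, Gbx2 and Bcl3 were called with ranges of 2.87 and 2.03, and IP20D-3 was lowest for both. These ranges do not concern their level in IP14D-101. In IP20D-3 against ESC2, 6 of 9 primed epiblast markers were lower (3.38% of all genes), and that list averaged 7.11 in IP20D-3, against 7.88 to 8.72 in the other lines. ESC2 had the highest of these means, 8.72. Against it, 4 of the 9 were also lower in R1 (3.75%), 3 in IP14D-101 (4.06%), 1 in IP14D-1 (1.36%) and 1 in IP36D-3 (1.47%). Of 19 feeder fibroblast markers, 7 were lower in IP14D-101 (4.06% of all genes), 8 in IP20D-3 (3.38%), 8 in IP36D-3 (1.47%) and 4 in R1 (3.75%) against ESC2. Higher than in ESC2 were 2 in IP14D-1 (2.08%) and 1 in R1 (4.38%). In R1 their mean log2 was 6.11, against 6.38 in ESC2, while their summed intensity was 9353, against 5938. The part of these markers in the differences of the LIF and STAT3 genes was not tested.

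Each line was also set against ESC2, the ES line that shares its strain label with 3 of the iPS lines. A gene was called at an adjusted p under 0.05 in limma and a log2 difference of at least 1. All 5 comparisons share the ESC2 arrays, so their values stand side by side. In IP14D-101, 3 of 8 genes were higher and 0 lower, against a background of 4.67% of genes higher and 4.06% lower. These were Stat3, Gbx2 by 1.28 (SE 0.15, adjusted p = 1.51e-06, 2.42-fold) and Bcl3 by 1.16 (SE 0.09, adjusted p = 1.01e-08, 2.24-fold). In IP20D-3, 0 genes were higher and 2 lower (background 5.22% higher, 3.38% lower). They were Gbx2 at -2.67 (SE 0.15, adjusted p = 1.9e-10, 6.36-fold lower in intensity, at a level not shown to be above background) and Bcl3 at -1.07 (SE 0.09, adjusted p = 2.7e-08, 2.09-fold lower).

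The other lines gave few calls by the brightest probe set. IP14D-1 had 0 of 8 genes called (background 2.08% higher, 1.36% lower), and so did IP36D-3 (1.91% higher, 1.47% lower). R1 had 0 higher and 1 lower, Lifr (4.38% higher, 3.75% lower). Bcl3 in R1 missed the threshold at 0.96 (SE 0.09, adjusted p = 1.05e-07 in limma). Counted over all 21 probe sets, 2 were higher than ESC2 in IP14D-1 (background 1.59%), 8 in IP14D-101 (3.44%), 2 in IP36D-3 (1.49%) and 3 in R1 (3.23%), mostly the dimmer Pim1, Pim3 and Socs3 probe sets. One Il6st probe set in IP36D-3 and 1 Lifr probe set in R1 were lower, beside 1.47% and 3.75% of genes. IP20D-3 had 0 probe sets higher and 2 lower, those of Gbx2 and Bcl3, beside 3.38% of genes lower. The share lower over all probe sets was not counted.

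**Figure D3:**
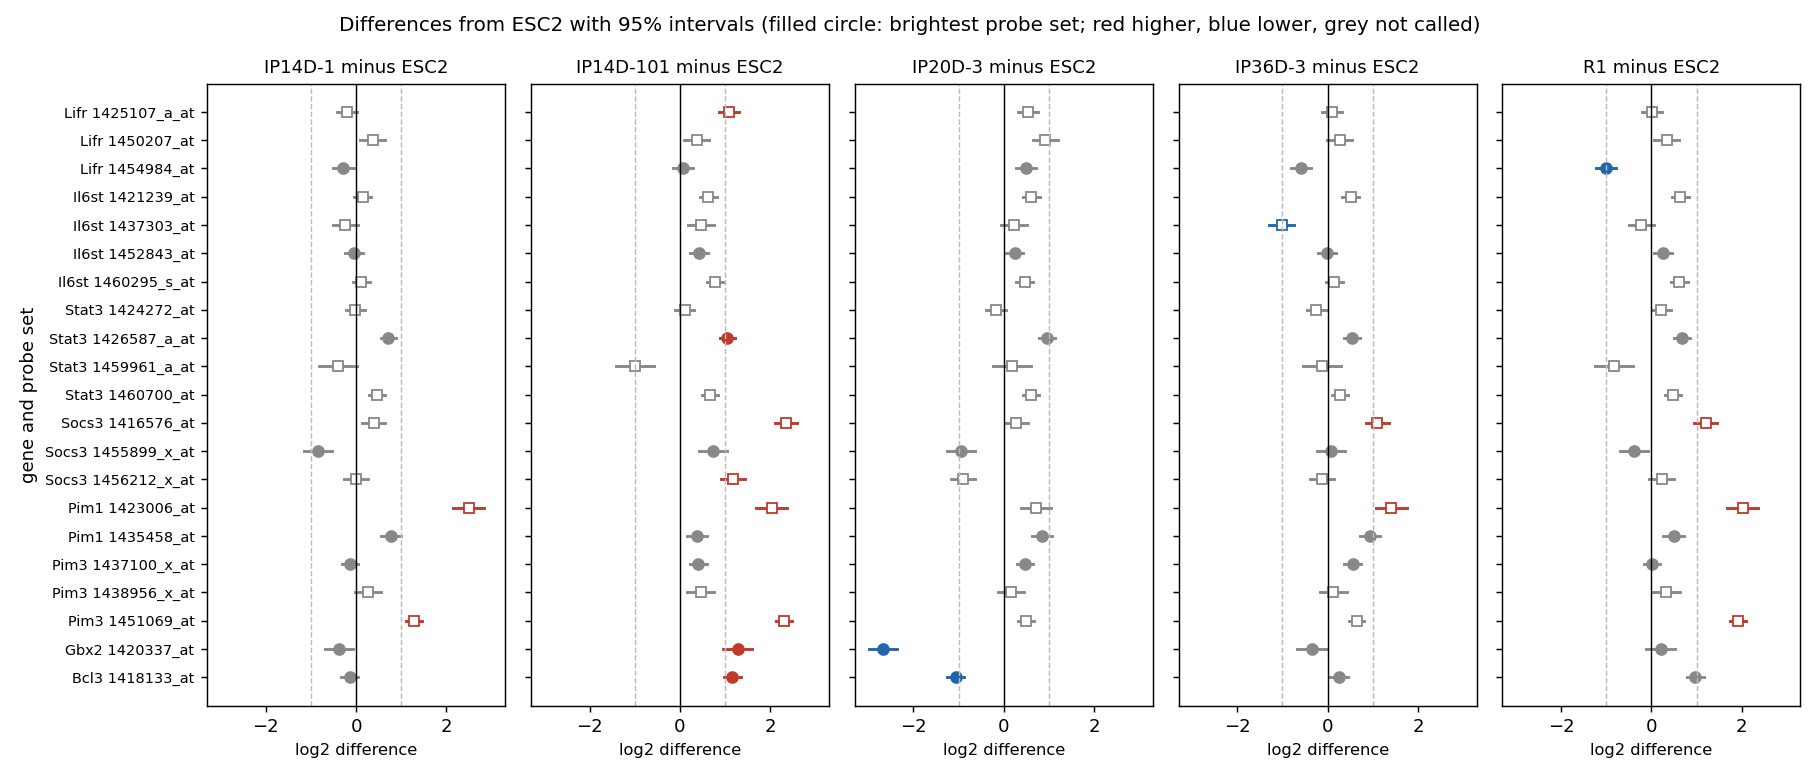
Log2 difference of each line from ESC2 with its 95% interval from limma for all 21 probe sets; filled circles are the brightest probe set of a gene, red marks a call higher, blue lower, and dashed lines mark a difference of 1 either way. Gbx2 and Bcl3 are red in IP14D-101 and blue in IP20D-3, while probe sets of Pim1, Pim3 and Socs3 disagree on size.

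IP14D-101 against IP20D-3 sets the highest Gbx2 line against the lowest. Socs3 was higher in IP14D-101 by 1.69 (SE 0.15), Gbx2 by 3.95 (SE 0.15) and Bcl3 by 2.23 (SE 0.09), with adjusted p of 3.7e-08, 2.35e-12 and 4.52e-12 in limma. These 3 of 8 genes stood against a background of 4.44% of genes higher. Over the 10 pairs of lines without ESC2, 19 of 80 gene-by-pair tests were called, against 5.59% for all genes. Gbx2 gave 7 of these calls, Bcl3 5, Socs3 4 and Lifr 3. Il6st, Stat3, Pim1 and Pim3 gave none by their brightest probe sets. On their dimmer probe sets 1451069_at and 1423006_at, Pim3 was called in 5 of those pairs and Pim1 in 4. The pairs share lines and are not independent.

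The cell type labels set the iPS lines against the ES lines. On the 6 line means, 4 against 2, limma called 0 of 8 genes and 0% of all genes. At an unadjusted p under 0.05 there were 0 of the 8 genes and 729 of all genes (4.01%). Lifr averaged 8.61 ± 0.46 in iPS lines (SD, n = 4 lines) and 8.18 ± 0.72 in ES lines (n = 2). Stat3 averaged 8.76 ± 0.23 in iPS and 8.29 ± 0.47 in ES lines. Gbx2 averaged 7.77 ± 1.62 in iPS and 8.40 ± 0.14 in ES lines. The 95% intervals of the difference were -0.50 to 1.36 for Lifr, -0.10 to 1.05 for Stat3 and -2.98 to 1.71 for Gbx2, so a 2-fold difference lies within each of them. By the brightest probe sets, the 4 iPS lines held both the highest and the lowest level of Il6st, Socs3, Pim3, Gbx2 and Bcl3. As 4 of the 6 lines were iPS lines, many genes could do so, and the share over all genes was not counted. On Socs3 probe set 1416576_at and Pim3 probe set 1451069_at the lowest line was ESC2, at 7.59 and 8.44. ESC2 was also lowest on Il6st probe sets 1421239_at and 1460295_s_at.

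IP14D-101 and R1, the lines whose strain label holds no D2, lay above all B6 x D2 F1 lines for 3 of 8 genes, Il6st, Gbx2 and Bcl3. For Il6st the step from R1 to IP20D-3 was 0.007 (adjusted p = 0.956 in limma), which is within the spread of the arrays. Over all genes 27.7% did so, each by its brightest probe set, and line and strain cannot be told apart. Of the 21 member probe sets, 10 lay above and 1 below all B6 x D2 F1 lines. Socs3 1416576_at and 1456212_x_at and Pim3 1451069_at were among those above. The share over all probe sets was not counted.

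Across the 6 lines the 8 genes did not share 1 order of levels. Gbx2 and Bcl3 line means correlated at r = 0.92 (Spearman's rho 0.94), and at r = 0.72 over 4 lines without IP14D-101 and IP20D-3. Socs3 correlated with Gbx2 at 0.79 and with Bcl3 at 0.74, and at 0.15 and 0.11 without those lines, so that relation rests on them. Lifr correlated with Gbx2 at -0.45 and with Bcl3 at -0.60. Over 4 lines without IP20D-3 and R1 these values were 0.72 and 0.42, so the negative sign rests on IP20D-3 and R1. By the brightest probe sets, IP20D-3 had the highest Lifr and the lowest Gbx2, Bcl3 and Socs3. R1 had the lowest Lifr and the second highest Gbx2 and Bcl3. These are descriptions over 6 points that share arrays and normalisation.

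**Figure D4:**
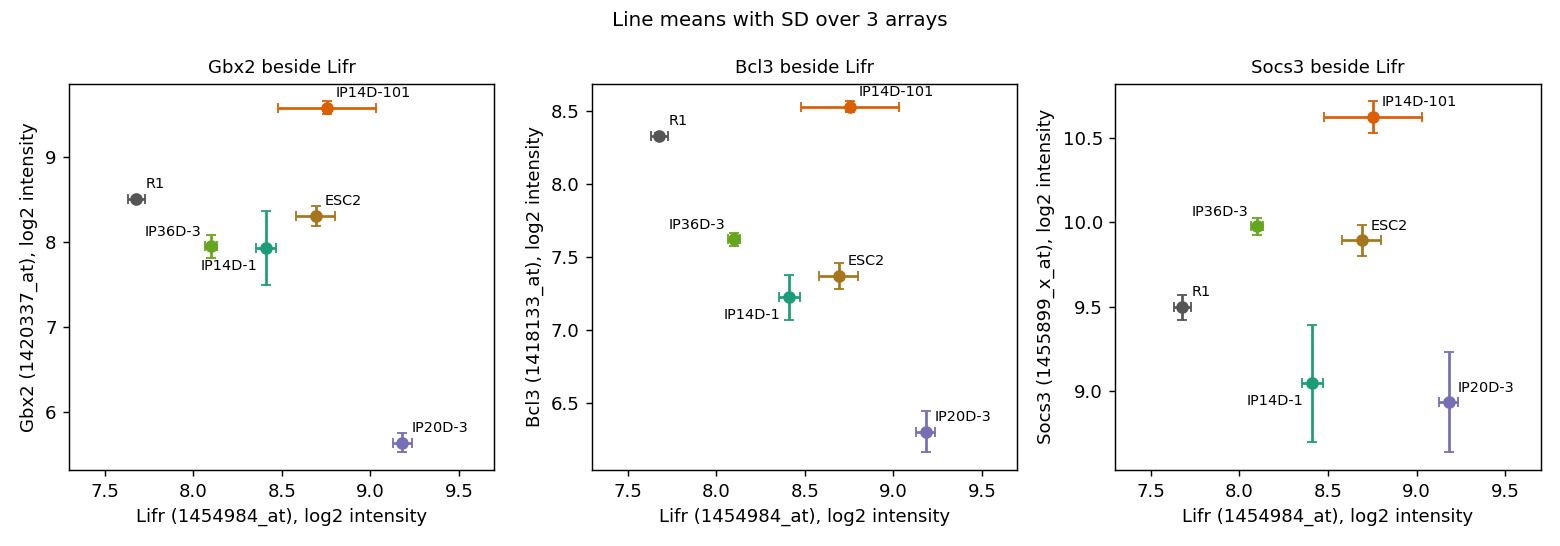
Line means of Gbx2, Bcl3 and Socs3 against Lifr (log2 intensity, SD over 3 arrays as bars) for the 6 lines, each by its brightest probe set. IP20D-3 lies at the high end of Lifr and the low end of the 3 other genes, and IP14D-101 is highest for all 3.

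Other genes of the pathway were described by lists, to be read beside the 25.9% of all genes called over the 6 lines and their median range of 0.64. Of 9 measured gp130 family ligands and receptors 1 was called over the 6 lines (median range 0.54). It was Cntfr, the receptor subunit for ciliary neurotrophic factor, which averaged 7.07 ± 0.15 in IP14D-1, 6.92 ± 0.16 in IP14D-101, 5.67 ± 0.11 in IP20D-3, 6.30 ± 0.19 in IP36D-3, 7.39 ± 0.04 in R1 and 5.99 ± 0.04 in ESC2. The level of Cntfr in IP20D-3 was not shown to be above background. Against ESC2 Cntfr was higher in R1 by 1.40 and in IP14D-1 by 1.08, and no other gene of the list was called against ESC2. Lif itself lay at 4.59 to 5.55, around the median over probe sets.

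Of 18 JAK kinases, other STATs and negative regulators, 6 were called (median range 0.76), a share near that of all genes. Stat6, Stat2 and Jak3 were lowest in ESC2, as Stat3 was. Stat6, which carries interleukin-4 signals, averaged 8.08 ± 0.06 in IP14D-1, 8.10 ± 0.05 in IP14D-101, 8.33 ± 0.03 in IP20D-3, 7.90 ± 0.08 in IP36D-3, 8.01 ± 0.12 in R1 and 6.93 ± 0.07 in ESC2. Stat2, an interferon-response STAT, spanned 1.90 between 6.29 in IP14D-101 and 4.39 in ESC2, a level not shown to be above background, and Jak3 spanned 1.42. Stat4 ran differently, with 7.62 ± 0.16 in IP20D-3 and 5.71 ± 0.38 in R1, a level not shown to be above background. Pias3, an inhibitor of STAT3, was highest in IP14D-101, at 7.51 ± 0.08, against 6.25 ± 0.04 in ESC2. Against ESC2 the list had 1 gene higher in IP14D-1 (2.08% of all genes), 4 in IP14D-101 (4.67%), 3 in IP20D-3 (5.22%), 1 in IP36D-3 (1.91%) and 3 in R1 (4.38%), with 1 lower in R1 (3.75%).

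Of 17 other LIF and STAT3 targets 12 were called over the 6 lines, against 25.9% of all genes (median range 1.11). Against ESC2, 4 were higher in IP14D-1 (2.08% of all genes), 5 in IP14D-101 (4.67%), 4 in IP20D-3 (5.22%), 2 in IP36D-3 (1.91%) and 6 in R1 (4.38%). In IP20D-3 4 were lower (3.38%), and 0 in the other lines. The list split in IP20D-3. The pluripotency factors Tbx3, Tfcp2l1, Klf5 and Klf4 were higher there than in ESC2 by 3.11, 1.93, 1.75 and 1.38. ESC2 was the lowest of the 6 lines for all 4, and each was also called higher in IP14D-101. The genes Myc, Ier3, Ccnd1 and Cebpd were lower in IP20D-3 than in ESC2, at -2.28, -1.73, -1.08 and -1.06. Tbx3 was highest in IP20D-3, at 10.11 ± 0.03, the line in which Gbx2 was lowest. Myc, a driver of growth, averaged 6.998 ± 0.11 in IP20D-3, against 8.50 to 9.27 in the other lines. Ier3, a stress-induced early gene, averaged 7.82 ± 0.17 in IP14D-101 and 7.84 ± 0.05 in R1, and was lowest in IP20D-3 at 5.69 ± 0.25. Its level in IP20D-3 was not shown to be above background. Junb was highest in R1, at 8.89 ± 0.12, against 6.28 ± 0.22 in ESC2. Klf5 was lowest in ESC2, at 10.17 ± 0.06, against 11.17 to 12.23 in the other lines.

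The FGF and ERK response genes, which mark the signalling route that opposes self-renewal, also varied between lines, with 10 of 11 called, against 25.9% of all genes, and a median range of 1.59. Against ESC2, 1 was higher in IP14D-1, 2 in IP14D-101, 0 in IP20D-3, 2 in IP36D-3 and 3 in R1, beside 1.91% to 5.22% of all genes. Lower were 2 in IP14D-101, 4 in IP20D-3, 1 in IP36D-3 and 0 in the other lines, beside 1.36% to 4.06% of all genes. Among those lower in IP20D-3 were Phlda1 at -1.80 and Lef1 at -1.70. In IP14D-101, Etv4 was higher by 1.80 and Dusp4 lower, at -1.32. Phlda1 was highest in R1, at 9.25 ± 0.17, against 7.998 ± 0.09 in ESC2.

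**Figure D5:**
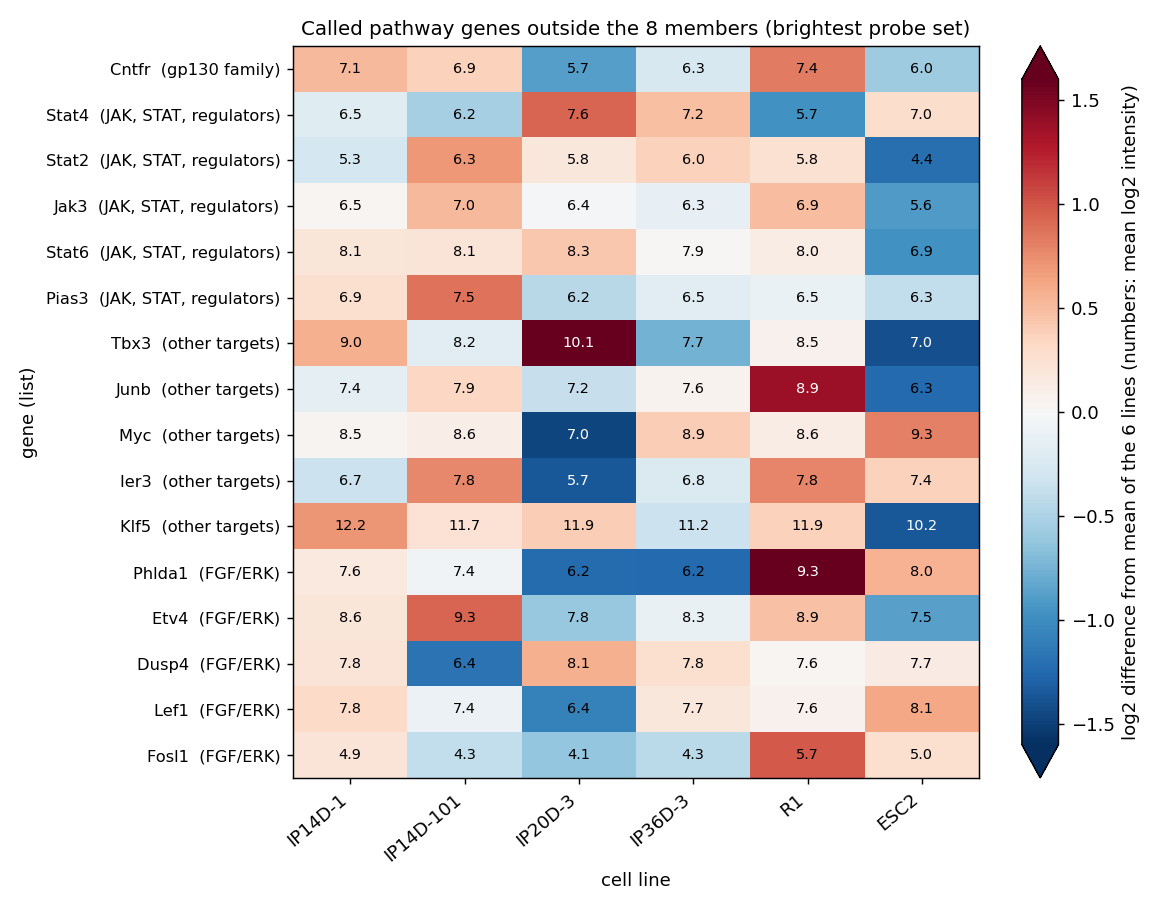
Line means of the called pathway genes with the widest ranges, up to 5 per list, coloured by log2 difference from the mean of the 6 lines and printed as mean log2 intensity. ESC2 is lowest for Stat2, Jak3, Stat6, Tbx3, Junb and Klf5, and IP20D-3 is lowest for Myc, Ier3 and Lef1.

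For each called gene, the 3 genes with the most similar line means were taken from 5923 probe sets of other genes with a range of at least 1 and a mean of at least 6. Over the 6 line means Gbx2 was most like Tpi1, Mest and Ina (Pearson's r 0.98 to 0.99). Bcl3 was most like Ccnjl, Crip1 and Hpcal1 (0.99 to 1.00). Stat3 was most like Chchd10, Sall1 and Acp6 (0.98 to 1.00), Socs3 most like Dnmt3a, Mrps12 and Egln3 (0.96 to 0.98), and Lifr most like Cdo1, Rnf125 and Tbc1d24 (0.92 to 0.94). With 6 points and this many candidates, such values describe likeness only.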

How the data were processed

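Biotin-labelled RNA of 6 lines was measured on Affymetrix arrays, 3 per line. The deposited values are probe set intensities on a linear scale. The authors made them with RMA, as the design text of the series and the submitters' processing notes say, in a version not named there. RMA normalises by quantiles, so a change shared by most genes would not show. The array medians were 29.1 to 30.5. The intensities were taken to log2. Leaving out 64 controls left 45037 of 45101 probe sets. Symbols came from the platform annotation. Of 34945 probe sets with 1 symbol, 34741 matched a RefSeq table of GRCm38.p6, and 0 symbols changed.

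All tests used limma 3.58.1 in R 4.3.3 with a mean per line over the 18 arrays (12 residual degrees of freedom) and Benjamini-Hochberg adjustment over the 45037 probe sets. The iPS and ES lines were compared on line means. The steps were first tested on simulated data. The members, lists and tests were chosen with earlier results of these data known. Every member is named by every probe set. From each list up to 5 called genes with the widest range are named, and the 3 most similar genes per called member. Where lists of genes are given against ESC2, the called genes are those of the same rule. Promoter windows came from RefSeq. The alternatives covered the probe set per gene, normalisation, threshold, array weights, replicate block and arrays or lines left out. The ones without the whole line ESC2 or IP14D-101 were chosen after seeing the data. Fibroblasts were not analysed here. Tables and plots were made in Python 3.11.15 (matplotlib 3.10.9, numpy 2.4.6, pandas 2.3.3).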

Additional observations from a re-analysis of the deposited data

Results flagged for a closer look

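Among the 4 iPS lines, the dim Lifr probe set 1450207_at averaged 6.01 in IP20D-3, against 5.35 to 5.45 in the other 3 lines. The gap to the nearest line was 0.842 of the range, above Dixon's 95% critical value for 4 values. Of 21 probe sets checked this way 1 stood out, and chance gives about 1 in 20.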

How the results depend on the processing

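Of 1392 recomputed member differences, 1320 kept their direction and their call, 47 gained a call, 4 lost it and 21 changed sign. The 47 include calls gained with no minimum difference or a minimum of 1.5-fold. In those settings only the threshold was lowered and the differences stayed the same. With the median of a gene's probe sets, 2 genes were called against ESC2 in IP14D-1, 5 in IP14D-101, 1 in IP36D-3 and 2 in R1, against 0, 3, 0 and 1. Under it, signs turned for Lifr (0.36 in IP14D-1, 0.26 in IP36D-3, 0.33 in R1), Socs3 (0.001 in IP14D-1, 0.23 in R1, 0.0875 in iPS against ES lines), Pim3 (1.28 in IP14D-1) and Stat3 (-0.037 in IP14D-101, -0.10 in R1). With no minimum difference, the counts were 8 over the 6 lines, 3 in IP14D-1, 7 in IP14D-101, 8 in IP20D-3, 5 in IP36D-3, 6 in R1 and 61 over the other 10 pairs. With a minimum of 1.5-fold they were 3 in IP14D-1, 5 in IP20D-3, 2 in IP36D-3, 3 in R1 and 29 over the other pairs. Repeated quantile normalisation left 0 in R1 and turned Il6st in IP14D-1 to 0.0069. Equal array medians turned Pim3 in R1 to -0.0013, and the B6 x D2 F1 lines alone gave Lifr -0.13 in iPS against ES lines. The cause of these changes was not tested.

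Leaving out each array in turn gave 4 to 6 genes over the 6 lines, 18 to 20 calls over the other pairs, and against ESC2 0 to 1 in IP14D-1, 2 to 3 in IP14D-101, 2 to 3 in IP20D-3, 0 to 1 in IP36D-3 and 0 to 2 in R1, with 0 to 0 for iPS against ES lines. Uncalled differences near 0 changed sign in that step: Il6st ranged from -0.12 to 0.0025 in IP14D-1, from -0.088 to 0.028 in IP36D-3 and from -0.012 to 0.044 in iPS against ES lines, Lifr from -0.064 to 0.21 in IP14D-101 and Pim3 from -0.026 to 0.040 in R1. In the paired fit with a replicate block, 5 genes were called over the 6 lines, as without it, and no other count changed. Arrays of different lines were also correlated after the mean of its line was subtracted from each array. On these deviations, same-numbered arrays correlated at a mean of 0.041 over 45 pairs of arrays, against -0.021 for different numbers. By the same measure, 9 of 18 arrays correlated best with their own number. The deviations of arrays numbered 2 correlated positively in every pair of lines, from 0.042 to 0.243, while those numbered 1 or 3 went both ways. The main fits did not pair arrays by number, and the cause of these correlations was not tested. Signal near background limits the Lifr, Stat3 and Pim3 probe sets under a log2 of about 5, and Gbx2 in IP20D-3. Among the listed pathway genes it also limits Ier3 and Cntfr in IP20D-3, Stat4 in R1 and Stat2 in ESC2.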
